A study of Mus musculus with 19 samples.

Results

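The miR-135 family was described here in the CA1 subfield of the mouse hippocampus, across age and oral SAHA. Its members were all miRNA names of the count tables that begin with miR-135a or miR-135b, which gave 5 members out of 1148 names: miR-135a-5p, miR-135a-1-3p, miR-135a-2-3p, miR-135b-5p and miR-135b-3p. The family was chosen by measured values: miR-135b-5p was lower in aged than in young vehicle libraries of these data. All differences between those 2 groups are therefore given below as a description, with no test. All 19 libraries were from wild-type (WT) animals, and the strain is written C57B/6JRj in the labels. The 8 young vehicle libraries were from animals of 3 months and the 5 aged vehicle libraries from animals of 20 months, both given cyclodextrin at 18 g per L of drinking water as vehicle. The 6 aged SAHA libraries were from animals of 20 months given the same cyclodextrin with 0.67 g of SAHA per L. Treatment of the aged animals lasted 4 weeks; for the young ones no length is stated. SAHA, also called vorinostat, inhibits histone deacetylases, and the series compares small RNAs of CA1 across age and this compound. Cyclodextrin, which keeps SAHA in solution, was thus common to all 3 groups. Nothing in the labels says whether the libraries of a group came from separate animals, so p-values measure the spread between these libraries.

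A microRNA hairpin is cut into a duplex whose 5p or 3p arm is loaded into an Argonaute protein, and bases 2 to 8 of the loaded arm, the seed, pair with target mRNAs. The 5p arms of miR-135a and miR-135b are nearly identical, have the same seed and are taken to share their targets. In the brain, miR-135 is known to repress the serotonin transporter Slc6a4 and the serotonin receptor Htr1a, and it has been linked to resilience to stress and to the response to antidepressants. In hippocampal neurons, miR-135 and miR-191 have each been linked to the lasting shrinkage of dendritic spines during long-term depression, miR-135 through complexins.

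The mature sequences are shown because they set what can be told apart in the counts. They are from RefSeq (GRCm38.p6, the same assembly as the mm10 build of the submitters' processing notes), 5′ to 3′, with the seed in capitals. A mature sequence was matched for 4 of the 5 members.
miR-135a-5p: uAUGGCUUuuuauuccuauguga
miR-135a-1-3p: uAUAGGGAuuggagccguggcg
miR-135a-2-3p: uGUAGGGAuggaagccaugaa
miR-135b-3p: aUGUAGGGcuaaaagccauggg
The 4 sequences printed carry 4 different seeds. The same miR-135a-5p is cut from both miR-135a hairpins, so its count cannot be divided between the loci, while each 3p arm belongs to 1 hairpin. The pair miR-135a-1-3p and miR-135a-2-3p was 68.2% identical in alignment. For miR-135a-5p and miR-135b-5p, which are nearly identical, the assignment of reads to one or the other is uncertain and was not tested.

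The 3 hairpins lie on 3 chromosomes. Mir135a-1 is at chr9:106154124-106154213 on the plus strand, in an intron of the antisense transcript D030055H07Rik and opposite a UTR exon of Glyctk, a glycerate kinase gene on the minus strand. Mir135a-2 is at chr10:92072086-92072185 on the minus strand, in an intron of Rmst, a long noncoding RNA of neural cells. Mir135b is at chr1:132198088-132198184 on the plus strand, in introns of Lemd1 and AC124108.1. A 3p read tells its locus, while a miR-135a-5p read does not. Hairpins of 2 loci are shown, with the mature arms listed by RefSeq in capitals.
Mir135a-2: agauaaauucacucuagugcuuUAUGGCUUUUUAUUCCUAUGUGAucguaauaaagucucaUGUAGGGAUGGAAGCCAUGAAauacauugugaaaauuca
Mir135b: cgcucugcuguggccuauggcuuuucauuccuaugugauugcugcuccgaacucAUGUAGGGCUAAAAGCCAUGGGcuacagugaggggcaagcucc
The Mir135a-2 and Mir135b hairpins were 63.3% identical in alignment.

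Library totals ran from 3585489 to 6808281 counts in young vehicle, from 4642434 to 5249168 in aged vehicle and from 4211365 to 5410804 in aged SAHA. All levels below are CPM (counts scaled to a common library size) after TMM scaling, and mature miRNAs are alike in length. How efficiently each sequence was ligated and amplified was not tested, so orders, shares and ratios between members are those of reads. Of the 1148 names, 509 passed the filter on low counts and were tested, among them 4 of the 5 members; miR-135b-3p did not pass. Aged SAHA library 1 stood apart: its median correlation with its own group was 0.9888, the lowest of all 19 libraries, against 0.9919 to 0.9957 elsewhere. It also had the highest summed CPM of the oligodendrocyte markers (8122, against 3344 to 5638 elsewhere) and of the microglia and immune markers (6447, against 3371 to 4707). Differences that rest on it are given with and without it, while correlations over the 19 libraries were computed only with it. The 9 neuron-enriched marker miRNAs were all tested, and their summed level was 74000 to 80250 CPM in aged SAHA, below the 85560 to 96070 of young vehicle and the 86690 to 92180 of aged vehicle. Their mean log2 level, in which each miRNA weighs the same, overlapped between the groups. Against aged vehicle, edgeR called 1 of the 9 lower in aged SAHA, where 4.32% of all 509 tested miRNAs were called. Against young vehicle it called 1 lower and 1 higher, where 13.9% of all were called. With 9 markers, nothing is read from these counts. The part of cell makeup in the SAHA comparisons below was not tested. In bulk tissue, fewer cells of a type and less RNA per cell cannot be told apart.

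miR-135a-5p was the most abundant member in all 19 libraries, at 116 ± 22.5 CPM (SD, n = 19), which placed it at rank 196 of 1148. miR-135a-2-3p followed at 18.14 ± 3.20 CPM and miR-135b-5p at 15.51 ± 4.08 CPM, and their spreads over all libraries overlapped. Their order differed between groups. The means were 17.9 and 18.62 CPM in young vehicle, 16.01 and 11.65 in aged vehicle, and 20.2 and 14.58 in aged SAHA. miR-135a-1-3p, at 2.003 ± 0.92 CPM, and miR-135b-3p, at 1.29 ± 0.59 CPM, came last, and their spreads over all libraries likewise overlapped. In young vehicle miR-135b-3p had the higher mean (1.635 against 1.458 CPM). In aged vehicle miR-135a-1-3p was higher without overlap, at 1.88 to 3.216 CPM against 0.5867 to 1.715. Differences between members were not tested. These last members rest on few reads, 2 to 21 per library for miR-135a-1-3p and 2 to 13 for miR-135b-3p, so single libraries say little about them.

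The 5p arm dominated both genes. It made up 85.2% of all miR-135a reads (95% exact binomial interval 84.6 to 85.8, 11386 of 13361 counts over all libraries) and 92.4% of all miR-135b reads (91.0 to 93.6, 1550 of 1678). Among the 5p reads of the family, miR-135b supplied 11.98% (11.4 to 12.6), with single libraries between 7.90% and 20.1%. Among the miR-135a 3p reads, which separate the loci, the Mir135a-2 arm made up 89.9% (88.5 to 91.2). It was the larger share in every library, from 83.3% to 96.8%. These intervals cover counting error only.

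**Figure D1:**
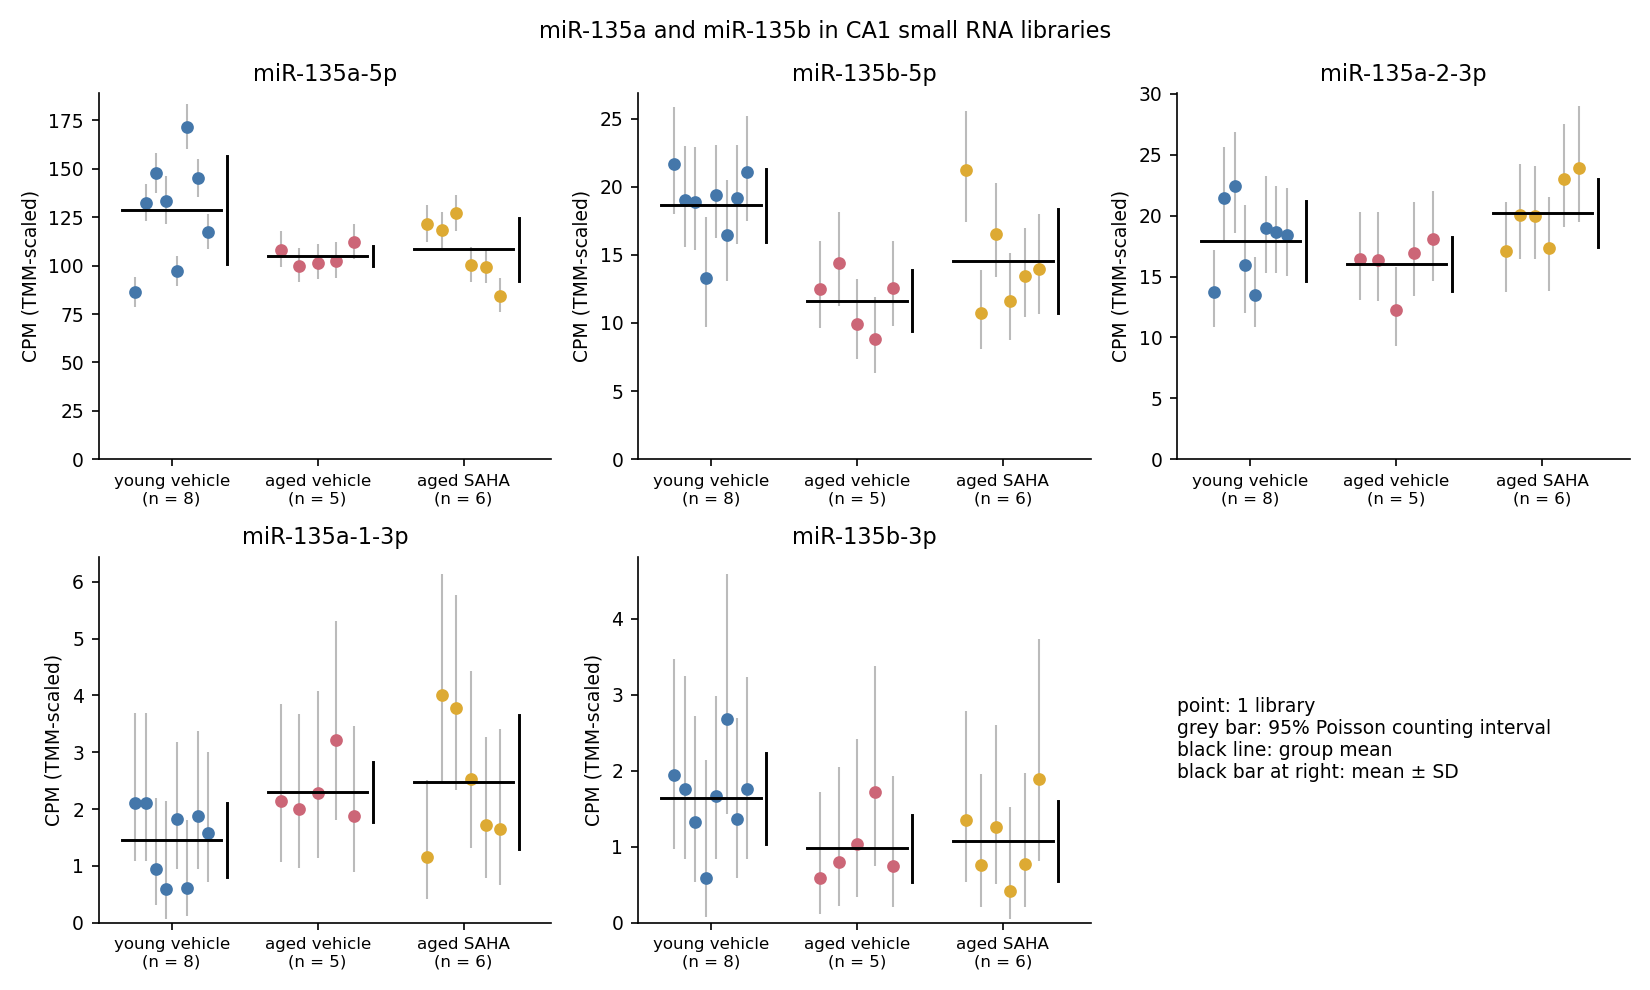
Level of the 5 miR-135 members in each library, in TMM-scaled CPM on axes that start at 0; points are libraries, grey bars 95% Poisson counting intervals, black lines group means and black bars ± SD. The miR-135b-5p points of aged vehicle lie from 8.79 to 14.4 CPM, mostly under those of young vehicle (13.3 to 21.7). Those of aged SAHA (10.7 to 21.2) overlap both ranges.

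miR-135b-5p, the less abundant of the 5p arms, is the member whose level chose the family. In young vehicle it ran from 13.3 CPM over a median of 19.1 to 21.7 CPM (mean 18.62 ± 2.65, SD, n = 8). In aged vehicle the 5 libraries read 12.5, 14.4, 9.96, 8.79 and 12.6 CPM (mean 11.65 ± 2.24, SD, n = 5). The groups overlap by 1 library on each side: 4 of the 5 aged vehicle libraries lay below every young one, and young vehicle library 4, the shallowest of the series, lay at 13.3 CPM below aged vehicle library 2. The log2 fold change was -0.68 ± 0.16 (SE). Over all miRNAs, edgeR's quasi-likelihood test called 11 of 509 in this comparison (2.16%), and 16 (3.14%) had groups that did not overlap in CPM. Of the 4 tested members, 1 was called, the one the choice rests on, and none had groups without overlap; nothing is read from these counts.

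In aged SAHA, miR-135b-5p lay between the vehicle groups, with a wide spread. Its 6 libraries ran from 10.7 CPM over a median of 13.7 to 21.2 CPM (mean 14.58 ± 3.82, SD, n = 6). The highest value was that of aged SAHA library 1, the library that stood apart, and 2 of the 6 libraries exceeded every aged vehicle library. Against aged vehicle the log2 fold change was 0.32 ± 0.17 (SE, 95% interval -0.02 to 0.67, adjusted p = 0.304 by edgeR's quasi-likelihood test with Benjamini-Hochberg adjustment), so no rise was shown; without aged SAHA library 1 it was 0.18. Against young vehicle it was -0.36 ± 0.14 (SE, interval -0.66 to -0.06, adjusted p = 0.0900), which missed the threshold of 0.05, with 5 of 6 libraries below the young median. In edgeR the side of the threshold on which this second difference fell depended on 1 library. Without aged SAHA library 1 it was -0.50 with an adjusted p of 0.0138 in edgeR, and without aged SAHA library 2 it was -0.28. With limma-voom, which weights libraries by their quality, it was -0.51 with all libraries kept, with an adjusted p of 0.0116. Each SAHA comparison shares one vehicle group with the age comparison that chose the family, so they are not independent of it.

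miR-135a-5p, the abundant arm that the 2 miR-135a loci have in common, had in young vehicle a lowest value of 86.2 CPM, a median of 133 and a highest of 172 CPM (mean 129 ± 27.9, SD, n = 8). The aged vehicle libraries were at 108, 99.9, 102, 102 and 112 CPM (mean 105 ± 5.11, SD, n = 5). All 5 aged vehicle values lay inside the young range and under the young median, with a log2 fold change of -0.30 ± 0.13 (SE). The aged SAHA libraries ran from 84.5 over a median of 109 to 127 CPM (mean 108.5 ± 16.4, SD, n = 6). They surrounded the aged vehicle values on both sides: 2 libraries were below all of them and 3 above. SAHA against aged vehicle gave a log2 fold change of 0.05 ± 0.14 (SE, interval -0.24 to 0.34, adjusted p = 0.864, edgeR), and the direction turned with limma-voom (-0.02). SAHA against young vehicle gave -0.25 ± 0.12 (SE, interval -0.50 to 0.01, adjusted p = 0.171, edgeR), with all 6 libraries under the young median.

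The spread of miR-135a-5p differed between groups. Its coefficient of variation was 21.6% in young vehicle, 15.1% in aged SAHA and 4.87% in aged vehicle, while counting error alone would give 3.89%, 4.28% and 4.38%, in the same order. The young vehicle and aged SAHA libraries spread well beyond counting error and the aged vehicle libraries barely so; the difference in spread was not tested.

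miR-135a-2-3p is the 3p arm cut at the Rmst locus. In young vehicle it ran from 13.5 CPM over a median of 18.5 to 22.4 CPM (mean 17.9 ± 3.29, SD, n = 8). The aged vehicle libraries were at 16.4, 16.4, 12.2, 16.9 and 18.1 CPM (mean 16.01 ± 2.21, SD, n = 5). They lay within the young range except for aged vehicle library 3, which was below it, and the log2 fold change was -0.16 ± 0.13 (SE), or -0.07 without that library. Aged SAHA ran from 17.1 over a median of 20.0 to 23.9 CPM (mean 20.2 ± 2.80, SD, n = 6), and 4 of its 6 libraries lay above every aged vehicle library. Against aged vehicle its log2 fold change was 0.34 ± 0.14 (SE, interval 0.04 to 0.63), which was not called (adjusted p = 0.171, edgeR) and was close to the 0.32 of miR-135b-5p. Against young vehicle it was 0.18 ± 0.12 (SE, interval -0.08 to 0.43, adjusted p = 0.334, edgeR).

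miR-135a-1-3p, from the locus opposite Glyctk, was the only tested member with a higher mean in both aged groups than in young vehicle. It ran in young vehicle from 0.59 over a median of 1.70 to 2.12 CPM (2 to 12 counts, mean 1.46 ± 0.64, SD, n = 8). The aged vehicle libraries were at 2.15, 1.997, 2.28, 3.22 and 1.88 CPM (10 to 15 counts, mean 2.30 ± 0.53, SD, n = 5), of which 3 exceeded every young library, and the log2 fold change was 0.59 ± 0.32 (SE). Aged SAHA ran from 1.16 over a median of 2.13 to 4.01 CPM (6 to 21 counts, mean 2.48 ± 1.19, SD, n = 6). SAHA against aged vehicle gave 0.13 ± 0.32 (SE, interval -0.54 to 0.79, adjusted p = 0.852, edgeR). SAHA against young vehicle gave 0.72 ± 0.30 (SE, interval 0.09 to 1.34, adjusted p = 0.103, edgeR). Without aged SAHA library 1 it was 0.86, with an adjusted p of 0.0467 in edgeR. At 2 to 12 counts in young vehicle, this member passed the filter on low counts through its aged libraries. Its p-values against young vehicle are therefore not independent of that filter, and no rise is read from them.

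miR-135b-3p, the minor arm of Mir135b, had too few reads to be tested. Its means were 1.64 ± 0.59 CPM in young vehicle (n = 8), 0.978 ± 0.44 in aged vehicle (n = 5) and 1.08 ± 0.53 in aged SAHA (n = 6), all SD. The group sums were 72, 24 and 32 counts, and the ranges of all 3 groups overlapped.

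In the comparison of SAHA with aged vehicle, edgeR called 22 of 509 miRNAs (4.32%) and 25 (4.91%) had groups without overlap. Against young vehicle it called 71 (13.9%), and 18 (3.54%) had groups without overlap. None of the 4 tested members was called or had groups without overlap in either of these comparisons.

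**Figure D2:**
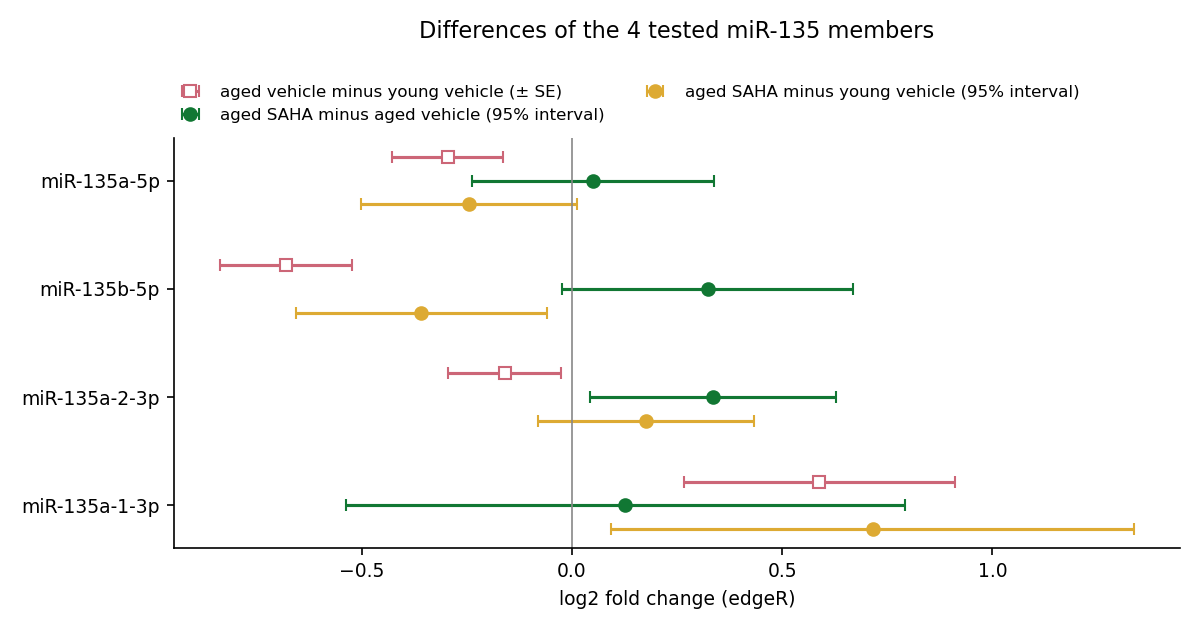
Log2 fold change of the 4 tested members in the 3 comparisons, from edgeR; bars are 95% intervals for the SAHA comparisons and ± SE for the age comparison, which chose the family and is not tested. miR-135b-5p lies at -0.68 for age, at 0.32 for SAHA against aged vehicle and at -0.36 for SAHA against young vehicle.

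Ratios within a library do not depend on its scaling. The ratio of miR-135a-5p to miR-135b-5p had a geometric mean of 6.803 in young vehicle, 9.06 in aged vehicle and 7.52 in aged SAHA, and the ranges of the 3 groups overlapped (3.96 to 10.3, 6.90 to 11.5 and 5.715 to 10.96). Neither SAHA difference passed an exact two-sided permutation test (adjusted p = 0.420 against aged vehicle and 0.604 against young vehicle, over 10 tests of ratios and sums). The CPM of both 5p arms together, the level of the shared targeting arm, was 147 ± 26.5 in young vehicle (SD, n = 8), 116.5 ± 5.94 in aged vehicle (n = 5) and 123 ± 18.3 in aged SAHA (n = 6). SAHA differed from aged vehicle in this sum by 6.54 CPM (exact permutation, adjusted p = 0.579; 2.43 without aged SAHA library 3 and 11.45 without aged SAHA library 6) and from young vehicle by -24.4 CPM (exact permutation, adjusted p = 0.400).

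The ratio of miR-135a-5p to miR-135a-2-3p was 7.12 in young vehicle, 6.57 in aged vehicle and 5.33 in aged SAHA. Aged SAHA libraries 5 and 6 were lowest of all 19, at 4.30 and 3.52, while the other 4 aged SAHA libraries (5.75 to 7.06) lay within or near the range of aged vehicle (6.02 to 8.24). Against young vehicle the log2 ratio differed by -0.42 (exact permutation, p = 0.0150, adjusted p = 0.150 over 10 tests). Without aged SAHA library 1 it differed by -0.50, with an exact permutation adjusted p of 0.0233, and without aged SAHA library 6 by -0.30. Against aged vehicle the difference was -0.30 (exact permutation, adjusted p = 0.420), or -0.18 without aged SAHA library 6. The smallest p these group sizes allow is 0.00216 against aged vehicle and 0.000333 against young vehicle.

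The remaining ratios compare arms with few reads. That of miR-135b-5p to miR-135b-3p was 11.3, 11.4 and 13.3 in young vehicle, aged vehicle and aged SAHA. That of miR-135a-2-3p to miR-135a-1-3p sets the 3p arm of the Rmst locus against that of the Glyctk locus. It was 12.5 in young vehicle (6.28 to 26.4), 6.76 in aged vehicle (5.13 to 9.19) and 8.57 in aged SAHA (4.91 to 13.8). None of the 4 SAHA differences of these 2 ratios passed (exact permutation, adjusted p from 0.420 to 0.615).

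**Figure D3:**
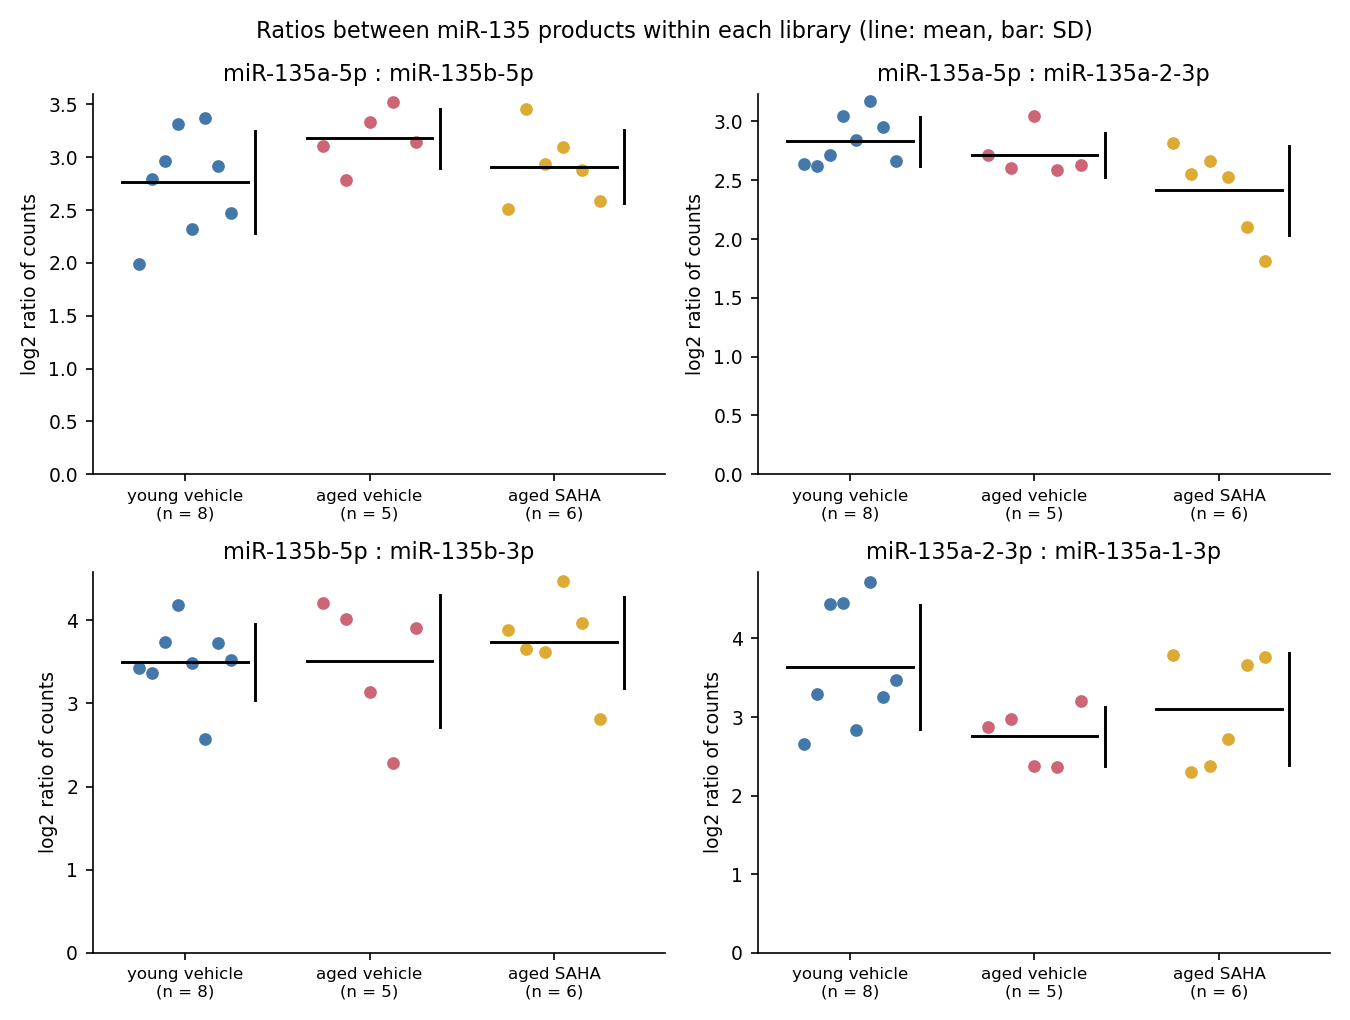
Log2 ratio of counts (0.5 count added) between miR-135 products within each library, on axes that start at 0; points are libraries, lines group means and bars ± SD. In the ratio of miR-135a-5p to miR-135a-2-3p, aged SAHA libraries 5 and 6 lie lowest, at 2.10 and 1.82.

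Relations between members across libraries were weak or differed between groups. Over 19 libraries, miR-135b-5p and miR-135a-5p had a Pearson r of 0.27 (permutation p = 0.262, Spearman rho 0.13, permutation p = 0.597), and r was 0.27 without the 2 libraries farthest from the median. With the group means removed, r was -0.09. Within young vehicle r was -0.52 (exact permutation p = 0.188, rho -0.79 with exact permutation p = 0.0279 and adjusted p = 0.138) and within aged SAHA 0.36 (exact permutation p = 0.485), so the pooled direction did not hold within young vehicle. The arms cut together from Mir135a-2, miR-135a-5p and miR-135a-2-3p, had an r of 0.30 over 19 libraries (permutation p = 0.215, rho 0.28, permutation p = 0.240). It was 0.57 without the 2 libraries farthest from the median, young vehicle 6 and aged SAHA 6, and 0.40 with the group means removed. Within young vehicle their r was 0.77 (exact permutation p = 0.0267, adjusted p = 0.160) and within aged SAHA -0.59 (exact permutation p = 0.217). The young relation fell to 0.19 without young vehicle libraries 1 and 5 and so rests on them. None of the 6 relations passed after adjustment.

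By Pearson r of log2 CPM over the 19 libraries, among 505 tested miRNAs and as a description, miR-135b-5p was followed most closely by miR-490-3p (0.86), miR-200b-3p (0.80), miR-200a-3p (0.77), miR-1224-3p (0.71) and miR-34a-5p (0.71). With the group means removed these stayed between 0.60 and 0.81, with miR-200b-3p first. Aged SAHA library 1 had the highest aged SAHA value of both miR-135b-5p (21.2 CPM) and miR-200b-3p (80.5 CPM). How far these r values rest on that library was not tested. All libraries share these groups and each library's scaling, so r also carries whatever separates the groups.

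miR-200a-3p and miR-200b-3p belong to the epithelial miR-200 family and stood in the marker list of choroid plexus and epithelium, of which 8 of 9 were tested and none was at 0 in every library. The summed level of that list was 2546 to 3912 CPM in young vehicle, 2434 to 3749 in aged vehicle and 2471 to 3714 in aged SAHA. Within it, miR-204-5p alone had means of 2990, 2835 and 3010 CPM, in the same order. The mean log2 level of the list had an r of 0.69 with miR-135b-5p, which is partly built in because it includes miR-200a-3p and miR-200b-3p. Within the list, miR-429-3p, also of the miR-200 family, had an r of 0.61 with miR-135b-5p, whereas miR-204-5p, the abundant choroid plexus miRNA, had an r of 0.14 and miR-211-5p one of -0.08. The r was 0.33 for miR-141-3p, -0.05 for miR-448-3p and -0.06 for miR-449a-5p. In aged SAHA against young vehicle, where 13.9% of all miRNAs were called, 2 of the 8 tested markers of the list were called, both lower, and 3 of the 8 had a fold change above 0. Of these 2, miR-200b-3p fell by 0.47 (adjusted p = 0.0107, edgeR) and miR-429-3p fell by 0.79 (adjusted p = 0.000244) on the log2 scale; miR-200a-3p stood at -0.07 and miR-449a-5p at 0.34, neither called. The part of these cells in the level of miR-135b-5p was not tested.

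For miR-135a-5p the closest were miR-1251-5p (0.73), miR-450a-5p (0.71), miR-351-5p (0.62), miR-486-5p (0.61) and miR-322-5p (0.61). With the group means removed, miR-1251-5p and miR-450a-5p stood at 0.71 and 0.65, and miR-351-5p, miR-486-5p and miR-322-5p at 0.49, 0.50 and 0.51, ranks 20, 17 and 14. The lists of the 2 arms shared no name, but miR-351-5p had an r of 0.68 with miR-135b-5p as well (rank 6) and miR-322-5p one of 0.55 (rank 22). miR-450a, miR-351 and miR-322 are neighbours in a cluster on the X chromosome. miR-1251-5p comes from an intron of Rmst, the host of Mir135a-2, with its hairpin at chr10:92137140-92137223 on the minus strand, 65.0 kb from that of Mir135a-2. It was scarce, at 20 to 46 counts per library, and its means were 6.17 ± 1.77 CPM in young vehicle (n = 8), 4.83 ± 0.65 in aged vehicle (n = 5) and 5.71 ± 0.90 in aged SAHA (n = 6), all SD. Its r with miR-135a-2-3p, the arm that only Mir135a-2 makes, was 0.36, which ranked 62. let-7g, whose hairpin lies 24.6 kb from Mir135a-1 in an intron of Wdr82, was less close to miR-135a-5p, with an r of 0.29 for let-7g-5p (rank 89). With miR-135a-2-3p, made at the other locus, let-7g-5p had an r of 0.50 (rank 16), above that of miR-1251-5p. With the group means removed these were 0.31 for let-7g-5p and 0.30 for miR-1251-5p. The other arm of the let-7g hairpin, let-7g-3p, went the other way with miR-135a-2-3p, at an r of -0.60 (rank 500). Its r with miR-135a-5p was 0.09 (rank 209).

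**Figure D4:**
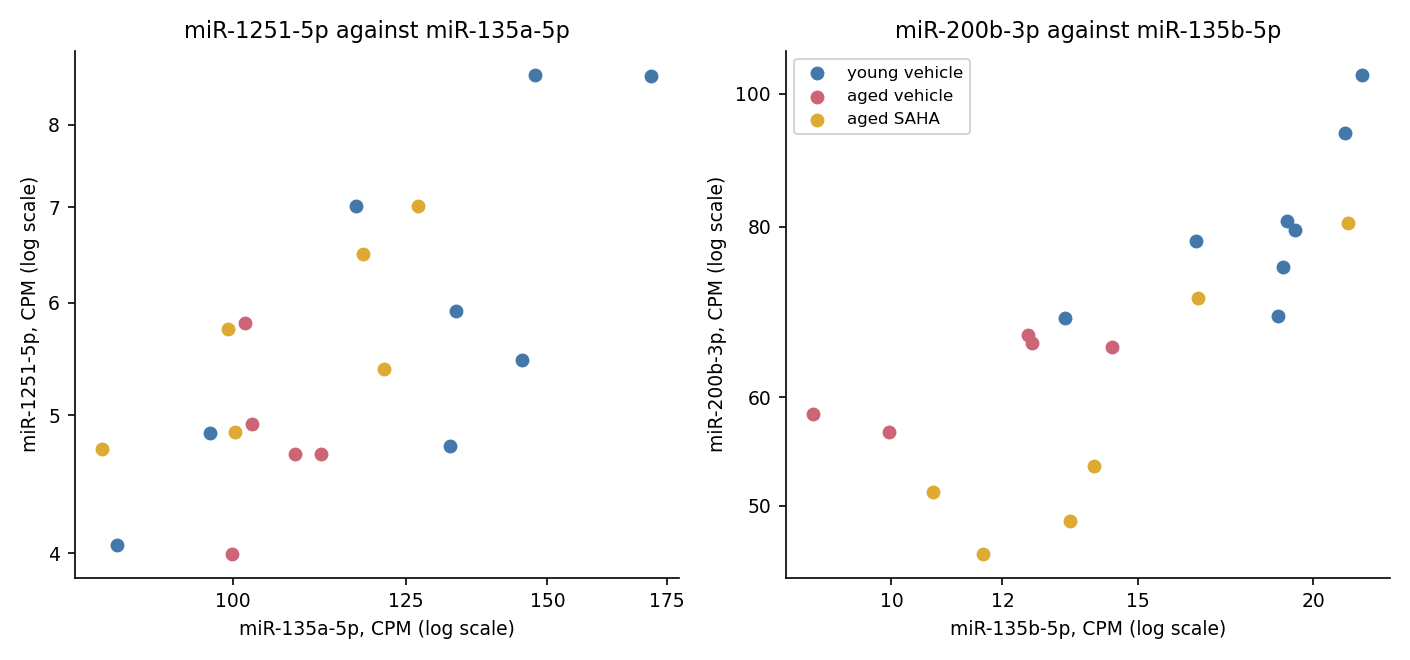
Level of miR-1251-5p against miR-135a-5p (left) and of miR-200b-3p against miR-135b-5p (right) in 19 libraries, in CPM on log axes, coloured by group. Pearson r of log2 CPM was 0.73 on the left and 0.80 on the right.

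In lists of other miRNAs from the settings in which miR-135 is known, counts of calls were 0 or 1, at shares of all miRNAs called of 2.16% for age, 4.32% for SAHA against aged vehicle and 13.9% for SAHA against young vehicle. Of 21 miRNAs reported at dendritic spines and synapses, all tested, none was called for age or for SAHA against aged vehicle; the medians of their log2 fold changes were 0.03 and -0.06, against -0.0030 and -0.0077 over all 509. miR-191-5p, also linked to that shrinkage of spines and named for that role, stood at -0.02 ± 0.07 (SE) for age and -0.11 ± 0.07 for SAHA. Against young vehicle, 1 of the 21 was called higher in aged SAHA: miR-29b-3p, at 0.30 ± 0.08 (adjusted p = 0.0165, edgeR), named after its value was seen. Of 12 miRNAs reported in serotonin signalling and stress response, 11 were tested and none was called for age or for SAHA against aged vehicle, with medians of -0.08 and 0.10. In aged SAHA against young vehicle 1 of them rose, miR-15a-5p, by 0.37 ± 0.08 (SE, adjusted p = 0.00363, edgeR).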

How the data were processed

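Small RNA libraries of mouse CA1, microdissected under a microscope, were sequenced after TruSeq preparation, per the labels. The deposited values are whole-number counts per mature miRNA. The submitters' processing notes name CASAVA 1.8.2, cutadapt, STAR, HTSeq and mm10; order, settings and miRNA annotation are not given in the sources used here. Names with several loci were counted (39 of 43 had a count), but how often such reads were counted is not known.

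Counts were fitted with edgeR 4.0.16 (R 4.3.3; TMM, filterByExpr with a minimum count of 10 and a total of 15, 1 term per group, robust quasi-likelihood, Benjamini-Hochberg over 509 miRNAs, threshold 0.05). SEs were taken as the log2 fold change divided by the square root of F. Ratios (0.5 count added) and sums were compared by exact permutation; correlations used 100000 permutations, or all of them for up to 8 libraries. Identities came from Biopython 1.88. Alternatives were DESeq2 1.42.0, limma 3.58.1, other scalings and filters, libraries left out and a replicate block. The scripts were tested on simulated data. Named were all members, the 5 miRNAs closest to each 5p arm, precursors within 100 kb, and up to 5 miRNAs per list. For choroid plexus and epithelium all 8 tested markers were named. Members and lists were chosen with earlier results of these data known.

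Replicate libraries were compared in 53 pairs within groups, and each pair differed by more than sampling noise (chi-square per degree of freedom from 24.7 to 294). Labels give no sex or batch.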

Additional observations from a re-analysis of the deposited data

Results flagged for a closer look

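Aged vehicle library 3 lay far from the other 4 of its group in 2 measures. Its miR-135a-2-3p level was 12.24 CPM (59 counts), and its log2 ratio of miR-135a-5p to miR-135a-2-3p was 3.043. The second contains the first, so they are not separate. They were the only such libraries in 30 groups of values examined, and chance gives about 1 in 20. Without this library, the log2 fold change of miR-135a-2-3p in aged SAHA against aged vehicle was 0.24 in place of 0.34, and that in aged against young vehicle -0.07 in place of -0.16.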

How the results depend on the processing

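Of 444 alternative values for the 18 SAHA results of members, ratios and sums, 434 kept their direction and their side of the threshold. Without aged SAHA library 1 and young vehicle library 6, miR-135b-5p in aged SAHA against young vehicle was -0.52 (adjusted p = 0.0101) and the log2 ratio of miR-135a-5p to miR-135a-2-3p -0.45 (exact permutation, adjusted p = 0.0379). With limma-voom that miR-135b-5p value was -0.51, and miR-135a-5p in aged SAHA against aged vehicle was -0.0173 (adjusted p = 0.933). Leaving out 1 library at a time gave -0.50 to -0.28 for miR-135b-5p, 0.52 to 0.86 for miR-135a-1-3p and -0.50 to -0.30 for the ratio of miR-135a-5p to miR-135a-2-3p, all against young vehicle. Against aged vehicle it gave -0.0624 to 0.276 for miR-135a-1-3p (below 0 without aged SAHA library 2 or 3) and -0.0811 to 0.410 for the log2 ratio of miR-135b-5p to miR-135b-3p. The correlation of miR-135b-5p with miR-135a-5p was -0.52 within young vehicle. The cause of these changes was not tested.

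The number of miRNAs called for age (11) was 20 with DESeq2, 26 with limma-voom, 19 with only the groups compared in the fit and 18 without aged SAHA library 1 and young vehicle library 6. The number called for SAHA against aged vehicle (22) was 39 with DESeq2, 47 with limma-voom, 10 with arms and copies summed, 37 without those 2 libraries, and 11 to 33 with 1 library left out (33 without aged SAHA library 1, 13 without aged vehicle library 1, 14 without aged vehicle library 3 and 11 without aged SAHA library 6). Same-numbered libraries did not deviate together (correlations from -0.317 to 0.314), so the numbers were not taken to pair them; with the replicate block 5 miRNAs were called for age, and miR-135b-5p was 0.34 against aged vehicle and -0.31 against young vehicle (adjusted p = 0.164). miR-135a-1-3p had no value under the filter of 10 CPM, and the 3p arms none with arms summed. Counts of 2 to 21 limit what can be said of miR-135a-1-3p and miR-135b-3p.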
